A study of Mus musculus with 6 samples.

Results

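The locus of Cd5 and Cd6 on mouse chromosome 19 was examined for T-bet binding in induced regulatory T cells (iTreg cells). Its members are the ChIP-seq peaks (chromatin immunoprecipitation and sequencing) that overlap a 220 kb window, chromosome 19 from 10740000 to 10960000 in build mm9. They were selected by position, in a locus chosen from the deposited peaks with their scores already in view. There were 10 such peaks among the 8925 of the series: 9 of 7996 in wild-type (WT) replicate 1, 1 of 851 in WT replicate 2 and 0 of 78 in the T-bet knockout (KO) library. Because the locus was picked for its peaks, all counts and scores given here describe it, and none of them was tested.

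The study had 6 samples: a pair of WT ChIP libraries, 1 KO ChIP library, and 3 input libraries, which were not analysed here. All came from Balb/c mice of 4 to 10 weeks. Per the labels, naive CD4 T cells were sorted, activated on plates with anti-CD3 and anti-CD28 at 10 µg/ml each, and cultured for 7 days with TGF-β1 at 33 ng/ml and IL-2 at 20 ng/ml. The WT and KO groups shared this treatment, the 20-minute formaldehyde fixation and the rabbit serum raised against T-bet. As labelled, they differed in the T-bet genotype alone. The deposited list names of WT replicate 1 and KO also differ in a leading number, as described below. The kind of KO allele is not given in the sources used here. The KO group is 1 library, and the labels do not say whether the WT replicates came from separate mice or cultures. Peak lists hold no expression values, so neither the iTreg identity nor the loss of T-bet could be checked against marker genes.

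T-bet belongs to the T-box transcription factors and is a regulator of type 1 T-cell responses that also acts in part of the regulatory T cells. CD5 and CD6 are membrane glycoproteins of T cells with scavenger receptor cysteine-rich domains outside the cell and tyrosines inside that bind signalling proteins. CD5 is best known for damping signals of the T-cell receptor, and its surface level follows the strength of those signals. CD6 binds ALCAM (CD166) on other cells and is known for roles in adhesion and in tuning T-cell activation. In the RefSeq gene table of build GRCm38.p6, the 2 genes are neighbours, separated by the long noncoding RNA gene A430093F15Rik. Vps37c lies next on the side of Cd5, and Slc15a3 and Tmem132a follow on the side of Cd6. That table is of another build than the peaks, so it gives the order of the genes only, and no peak could be assigned to an exon, intron or promoter.

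The T-box half-site GTGTGA was looked for in the promoters of both genes. RefSeq's promoter table for GRCm38.p6 had an entry for Cd5; Cd6 had none. The 250 bases before the Cd5 start, chr19:10738975-10739224 on the minus strand in GRCm38.p6, are shown because Cd5 is a gene of the locus and T-bet the factor profiled. Capitals would mark the half-site on either strand (GTGTGA or TCACAC), and there was none.
Cd5 promoter: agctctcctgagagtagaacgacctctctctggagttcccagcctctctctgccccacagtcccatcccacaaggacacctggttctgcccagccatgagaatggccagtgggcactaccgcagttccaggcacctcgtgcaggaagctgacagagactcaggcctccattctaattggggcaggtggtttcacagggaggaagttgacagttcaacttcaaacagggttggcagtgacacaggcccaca
Of the 32851 promoter entries of the same length, 4039 held the half-site, or 12.3%. The absence of these letters from the Cd5 stretch says only that they are not in this window. Its position cannot be compared with the mm9 peak positions that follow.

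One site in the locus was held by both WT lists and had no KO peak. In WT replicate 1 its main peak ran from 10837855 to 10838599, was 745 bp wide and had a score of 852. The score is the value the peak caller gave each peak, as deposited by the authors; its scale is not stated, and it is compared here within a list or by rank. In WT replicate 2 the peak ran from 10837822 to 10838660, was 839 bp wide and had a score of 127. The replicate 2 peak covered all 745 bp of the replicate 1 peak, which in turn covered 88.8% of it. Their midpoints lay 14.0 bp apart, against a median of 32.0 bp over the 726 replicate 1 peaks of the series that met a replicate 2 peak and no KO peak, called shared sites below.

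A second, minor replicate 1 peak adjoined this site. It ran from 10837720 to 10837844, ended 10 bp before the main peak began, and had a score of 84.8. The replicate 2 peak reached only 23 bp into it, or 18.4% of its width. By an overlap of at least 1 bp both replicate 1 peaks met the replicate 2 peak, so the locus counts as 2 shared sites, but they correspond to 1 peak of replicate 2. Some other replicate 2 peaks also met more than 1 replicate 1 peak. Ranks and medians of replicate 2 values over the shared sites count such peaks repeatedly.

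**Figure D1:**
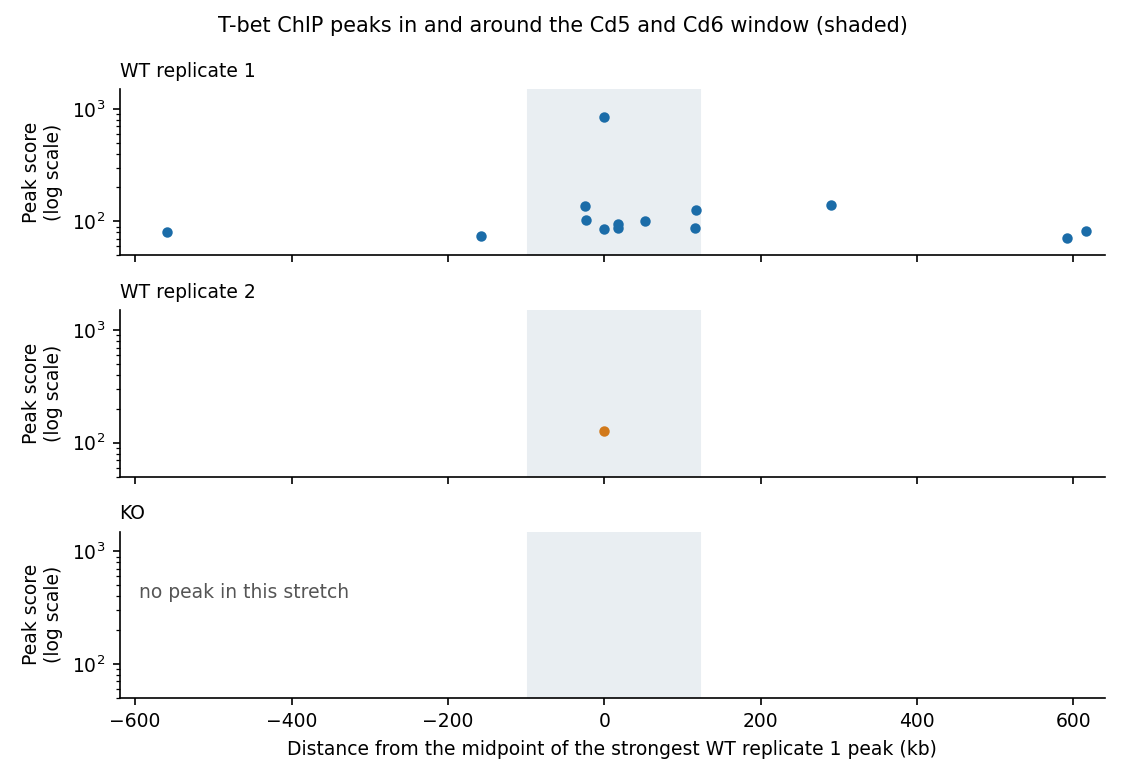
Peaks of each list in the window (shaded) and 500 kb on each side; the x axis is the distance in kb from the midpoint of the strongest WT replicate 1 peak, the y axis the peak score on a log scale, and each point is 1 peak. Replicate 1 has 9 peaks in the window with 1 far above the others, replicate 2 has 1 peak at the same place, and the KO list has none.

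The remaining 7 peaks of the window were found in WT replicate 1 alone. On the lower side of the shared site, a peak from 10813336 to 10813583 scored 137 and one from 10815254 to 10815464 scored 102; they lay 24.8 and 22.9 kb from the main peak and 1.67 kb apart. On the other side, a pair from 10855983 to 10856124 and from 10856232 to 10856403 scored 94.25 and 87.1 at 17.8 and 18.1 kb. A single peak from 10890484 to 10890645 scored 100.2 at 52.3 kb. A last pair, from 10954680 to 10954833 and from 10955239 to 10955419, scored 87.3 and 126 at 117 kb, the latter ending 4.58 kb before the end of the window. These 7 peaks were between 142 and 248 bp wide, and none was met by a replicate 2 or KO peak.

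Close pairs were common among these peaks. Of the 9 replicate 1 peaks, 6 had another within 500 bp, or 66.7% (exact 95% binomial interval 29.9 to 92.5%), against 13.1% of all replicate 1 peaks. Joined within 500 bp, the 9 peaks formed 6 sites, 3 of them pairs spanning 880, 421 and 740 bp. The members of a pair were separated by gaps of 10, 107 and 405 bp. Such peaks share their surroundings, and a neighbour counts for both members of a pair, so the 6 are not independent observations. The interval treats them as independent and is therefore too narrow.

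Of the 9 replicate 1 peaks, 2 met a replicate 2 peak, or 22.2% (2.81 to 60.0%), beside 9.50% of the whole list; after joining, it was 1 site of 6. A KO peak met 0 of the 9, beside 0.550% of the whole list; the KO list is so short that most places have no KO peak. The replicate 2 peak was met by replicate 1, as were 85.4% of the replicate 2 peaks, and not by KO, which met 5.41% of them. On 9 peaks and 1 peak, these counts are set beside the shares of the lists with no test. The intervals cover counting error over peaks only.

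Within replicate 1 the main peak and the others lay far apart in rank. The main peak ranked 40th of 7996, above 99.5% of the list, and its score was 6.23 times the next highest of the locus. The 7 peaks found in replicate 1 alone scored between 87.07 and 136.83 with a median of 100.2, beside a median of 103 for all replicate 1 peaks without a replicate 2 counterpart. Only 3 of the 9 peaks scored above the median of the list, 108: the main peak and those at 10813336 and 10955239. The share of peaks met by replicate 2 in the deciles of the replicate 1 score that hold the 7 peaks ran from 2.25% to 5.12%. In the highest decile, which holds the main peak, it was 47.1%.

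**Figure D2:**
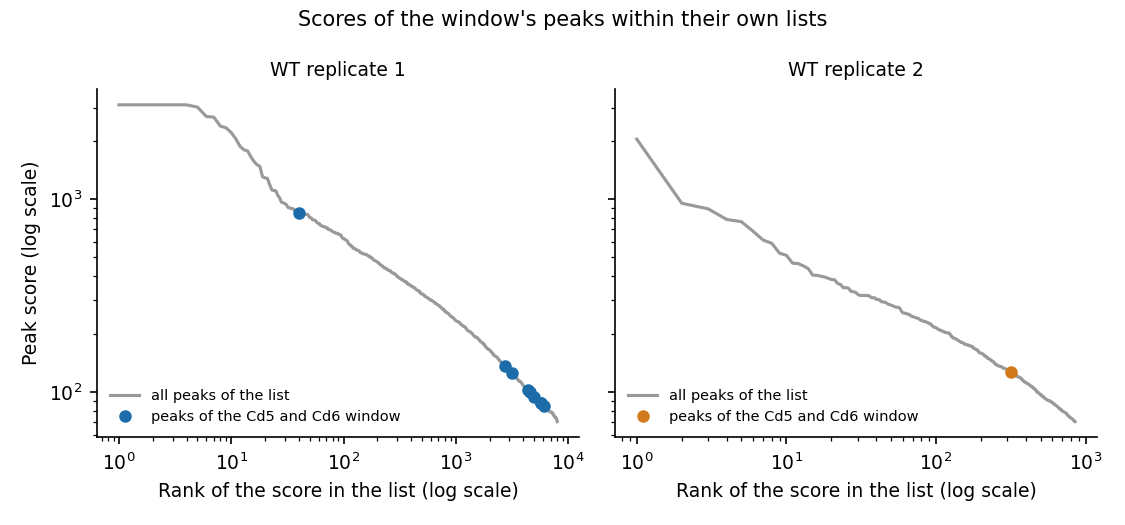
Score (y axis, log scale) against rank (x axis, log scale) for all peaks of each WT list (line), with the peaks of the Cd5 and Cd6 window as points. In replicate 1 the main peak stands at rank 40 and the other 8 at ranks from 2752 to 6063; the replicate 2 peak stands at rank 317 of 851.

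Most of the highest-scoring replicate 1 peaks were not met by replicate 2, though more were than in the whole list. Of the 40 replicate 1 peaks that scored 852 or more, the main peak of the locus included, 12 met a replicate 2 peak. That is 30.0%, beside 9.50% of the whole list and 47.1% of the highest decile of the replicate 1 score. A KO peak met 2 of the 40, beside 0.550% of the whole list. The main peak was among the 12.

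The 2 WT lists placed the site differently by score. Its replicate 1 score ranked 10th of the 726 shared sites and first of the 26 on chromosome 19. Its replicate 2 score of 127 ranked 297th of the 726, 14th of the 26, and 317th of the 851 peaks of the list, whose median was 108. Among the 10 shared sites with the highest replicate 1 scores, it had the lowest replicate 2 score; the next lowest was 130, at the site on chromosome 11 from 54836514 to 54837048, and the highest was 615. The replicate 1 score was 6.68 times the replicate 2 score, beside a median ratio of 2.07, and 1.79% of the shared sites had a ratio as high or higher. Scores of the 2 lists have no stated common scale, so the ratio serves only to order the sites. The names under which the lists were deposited carry the same leading number for replicate 2 and KO and a different one for replicate 1. What it stands for is not stated. Between the WT lists it changes together with the replicate, and between replicate 1 and KO together with the genotype. Its part in such differences cannot be told apart from these and was not tested.

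By width the lists placed it alike. The 745 bp of the replicate 1 peak was the fifth largest width of the 726 shared sites, whose median was 315 bp. The 839 bp of the replicate 2 peak was the sixth, with a median of 366 bp and a wider 1066 bp peak counted for more than 1 site. Over the full lists, the replicate 1 peak was 25th of 7996 by width and the replicate 2 peak 12th of 851. The 25 replicate 1 peaks at least as wide had a median score of 619, below the 852 seen here, and 5 of them met a replicate 2 peak and 0 a KO peak. The 12 replicate 2 peaks at least as wide had a median score of 288, above the 127 seen here. Only 2 of them scored lower, 7 met a replicate 1 peak and 5 a KO peak. Over the whole lists, replicate 2 met 9.50% of the replicate 1 peaks and KO 0.550%. Replicate 1 met 85.4% of the replicate 2 peaks and KO 5.41%.

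**Figure D3:**
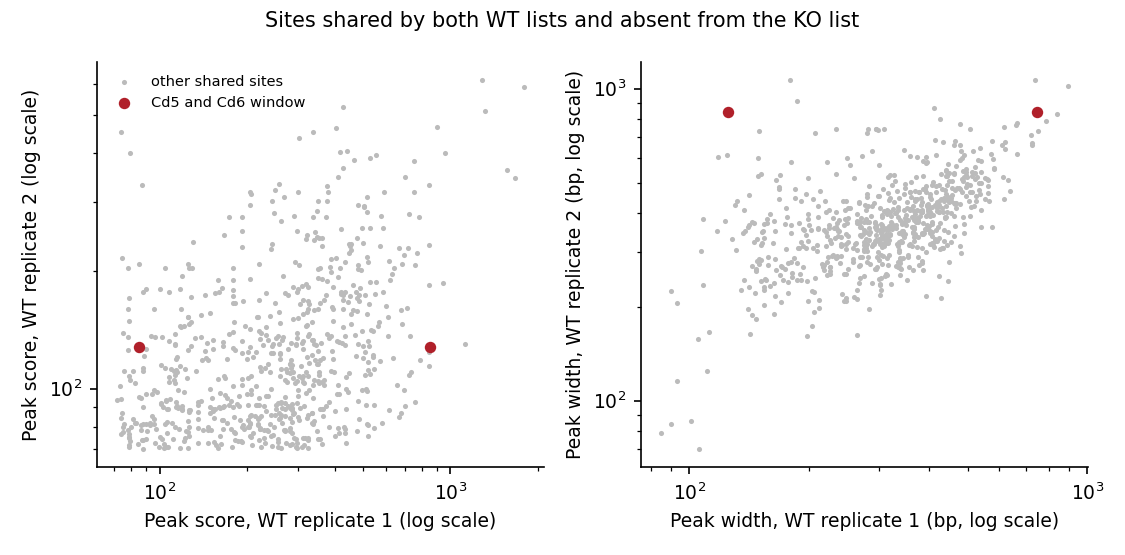
Replicate 1 (x axis) against replicate 2 (y axis) for the 726 shared sites, as peak score on the left and peak width in bp on the right, all axes on log scales; red points are the 2 replicate 1 peaks of the Cd5 and Cd6 window, which meet the same replicate 2 peak. The main peak lies at scores of 852 and 127 and at widths of 745 and 839 bp; the minor one at a replicate 1 score of 84.8 and width of 125 bp.

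Outside the window, replicate 1 peaks were about as dense as elsewhere on the chromosome. In this list, the 500 kb before the window held 2 peaks and the 500 kb after it 3, against 9 in the 220 kb between; the flanks thus had 5 peaks in 1 Mb, beside 4.30 per Mb over all of chromosome 19 outside the window. The nearest ran from 10679993 to 10680141, 59.9 kb before the window with a score of 73.6, and from 11127510 to 11127722, 168 kb after it with a score of 140; replicate 2 and KO had no peak at either. The first 73.3 kb of the window itself held no peak, and the 9 peaks spanned 142 kb. The nearest replicate 2 peaks on chromosome 19 lay 6.78 and 5.44 Mb from the main peak. The KO list had 2 peaks on the chromosome, the nearer 6.78 Mb away with a score of 73.5.

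Peak density in the window was 40.9 per Mb in replicate 1 (exact 95% Poisson interval 18.7 to 77.7), beside 4.30 per Mb over the rest of chromosome 19 and 3.19 over the rest of the autosomes. In replicate 2 it was 4.55 per Mb on 1 peak (0.115 to 25.3), beside 0.458 and 0.338. The intervals treat peaks as independent, which close pairs are not, and the window was picked for its peaks. The replicate 1 density was 9.51 times that of the rest of chromosome 19 and 12.8 times that of the autosomes. With peaks within 500 bp merged, these ratios were 6.75 and 9.18. When the autosomes and X were divided into 11985 tiles of 220 kb, 72 tiles, or 0.601%, held 9 or more replicate 1 peaks, 8526 held none, and the fullest held 27. At least 1 replicate 2 peak lay in 617 tiles, or 5.15%, and at least 2 shared sites in 131, or 1.09%. The tiles fell at fixed steps, whereas the window was laid around known peaks, so the 2 are not placed alike.

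**Figure D4:**
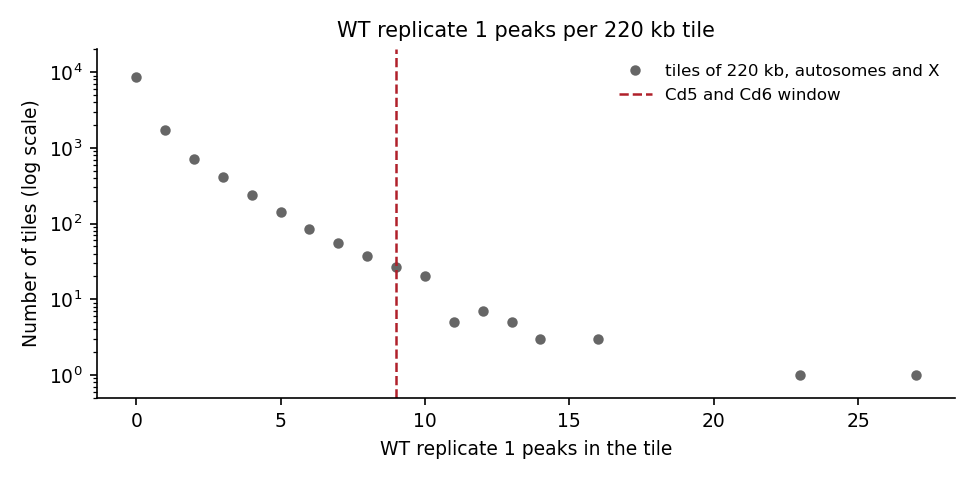
Number of 220 kb tiles of the autosomes and X (y axis, log scale) by the number of WT replicate 1 peaks they hold (x axis); the dashed line marks the 9 peaks of the Cd5 and Cd6 window. Of 11985 tiles, 72 hold 9 or more.

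The 72 tiles as rich in replicate 1 peaks as the locus resembled it in part. A shared site was present in 52 of them, a KO peak in 5, and 36 had at most 1 replicate 2 peak, as the locus does. Over all 11985 tiles, 95.7% held no shared site and 94.9% no replicate 2 peak. Having at most 1 replicate 2 peak is thus usual for any tile and not a trait of the rich ones. The share of all tiles with a KO peak was not counted, but there were only 78 KO peaks for the 11985 tiles. A KO peak was therefore more frequent in the 72 rich tiles than over all tiles. The 72 tiles held from 0 to 9 replicate 2 peaks. The tile with the most shared sites, chromosome 4 from 32340001 to 32560000, held 8 of them, 23 replicate 1 peaks and 9 replicate 2 peaks. It was followed by 3 tiles with 5 shared sites each, chr19:53460001-53680000, chr14:45540001-45760000 and chr4:88660001-88880000. These held 13, 12 and 10 replicate 1 peaks and 5, 5 and 4 replicate 2 peaks. No KO peak lay in any of the 4 tiles, which is usual for any tile with so few KO peaks. The Cd5 and Cd6 window had fewer shared sites and fewer peaks of each WT list, and likewise no KO peak. Within 110 kb of its main peak lay 6 other replicate 1 peaks, beside a median of 4.00 over the shared sites, and 34.6% of these had as many or more. The 10 shared sites with the highest replicate 1 scores had between 1 and 9 such neighbours.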

How the data were processed

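One peak list was used for each of the 3 T-bet ChIP libraries; samples were grouped by title. Per the submitters' processing notes, the tools were CASAVA, Bowtie2 and MACS 1.4 and the build mm9; the peak-calling settings, filters and controls are not given in these sources. Each list belongs to 1 library, not to pooled replicates. The score deposited by the authors is not on a stated scale, and no list holds a score below 70.10. Depth is unknown.

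The members and comparisons were chosen with earlier results of these data known. All peaks overlapping the window were taken, and peaks named outside it are the nearest on each side, the strongest shared sites and the tiles with most shared sites (3 by the rule, and 1 more that tied with the last 2); single sites set beside the locus were named after their values were seen. Positions count from 1. Peaks met when they shared at least 1 bp. Shares carry Clopper-Pearson and densities exact Poisson 95% intervals. Chromosome lengths came from GenomeInfoDb 1.38.1. Counting was done in Python 3.11.15 with scipy 1.17.1 and numpy 2.4.6, and plots in matplotlib 3.10.9; overlap counting was tested on planted overlaps. The planned gene positions and related-gene counts were not run, since no mm9 annotation was used here. The alternatives were a stricter score, other overlap rules, merged peaks, a wider window, no KO filter, other tiles and leaving out each WT replicate.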

Additional observations from a re-analysis of the deposited data

How the results depend on the processing

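Of the values given for the locus, those that moved did so as follows. With scores of at least 100, replicate 1 had 5 peaks in the window, replicate 2 still 1 and KO 0. The 2 shared sites became 1 with scores of at least 100, with a reciprocal overlap of at least 50%, with midpoints within 250 bp and with peaks within 500 bp merged, because the minor replicate 1 peak dropped out or was joined to the main one. Leaving out a WT replicate gave 1 to 9 peaks without a KO counterpart, 1 without replicate 1 and 9 without replicate 2. The share of the replicate 1 peaks with a replicate 2 counterpart became 100%, on 1 peak, when the replicate 1 list was cut to the length of replicate 2, beside 46.3% of the whole list cut in this way. It was 11.1%, 1 peak of 9, in place of 22.2% with a reciprocal overlap of at least 50% and with midpoints within 250 bp, close to the 8.25% and 9.38% of the whole list under the same rules. The replicate 2 density relative to the rest of the autosomes, 13.5 with all peaks, was 24.1 with scores of at least 100, on 1 peak. Over tiles with at least 1 peak, the shares of tiles as full as the window were 2.06% for replicate 1, 17.6% for replicate 2 and 3.74% for shared sites; with scores of at least 100 they were 1.32%, 2.93% and 2.56%. The remaining values stayed within 1.5 times the reported one or, for the share met by replicate 2, within its wide interval. No paired analysis was possible because the KO group has a single library and the inputs were not used. Depth is unknown, so the lack of a replicate 2 or KO peak at a place does not show that it lacks signal.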
